A study of Homo sapiens with 39 samples.

Results

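GSK-J4 was set directly against ZnSO4 after 6 h in JJN3, an established human multiple myeloma cell line, by RNA sequencing. The comparison rests on 6 of the 39 libraries of the series, 3 of cells treated with GSK-J4 for 6 h and 3 of cells treated with ZnSO4 for 6 h, and covers the 14460 genes that passed a filter on low counts, out of 57773 in the count table. The 3 libraries of cells kept in DMSO, the vehicle, for 6 h are given beside them, and the GSK-J4 and ZnSO4 libraries of 1, 3 and 24 h serve for the time course. GSK-J4 is a cell-permeable inhibitor of the KDM6 histone demethylases, and ZnSO4 supplies zinc ions. No group carries a genetic change according to the labels, and no source used here gives the doses. JJN3 is 1 line, so the results describe that line. The comparison asks what separates the 2 treatments from each other at the same time point.

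The 6 libraries held 4403333 to 6662502 counts, so that 3 counts, taken as the floor of detection, equal 0.450 to 0.681 CPM (read counts scaled to library size). Levels below are CPM scaled with TMM factors, and a log2 fold change (log2FC) is GSK-J4 over ZnSO4, n = 3 libraries per group. The value after ± is its standard error unless SD is written. That error was derived from the test statistic of a fit over all 39 libraries, not from the 3 libraries of each group alone. Results worded as rose, fell, raised or lowered refer to GSK-J4 against ZnSO4, not against DMSO. A gene was called at an adjusted p under 0.05 (edgeR quasi-likelihood test, Benjamini-Hochberg). The gene lists below were chosen with earlier results of these data known, so their counts and medians describe the members and do not test a pathway. Whether replicates came from separate cultures is not stated in the labels; the p-values therefore cover only library-to-library spread, possibly a technical one. All 10 plasma cell identity markers were above 1 CPM, with a summed level of 12387 to 12592 CPM in GSK-J4 and 11432 to 12033 CPM in ZnSO4. T and NK cell markers summed to at most 2.40 CPM in GSK-J4 and 2.21 CPM in ZnSO4, with CD3D and NKG7 at 0, and myeloid markers to at most 2.70 and 3.30 CPM, with LYZ, FCGR3A and MPO at 0. Stromal and endothelial markers summed to 23 to 38.9 CPM in GSK-J4 and 10.6 to 23.4 CPM in ZnSO4, and epithelial markers to 42.9 to 43.8 and 45.0 to 51.1 CPM; their part in the results was not tested. In bulk samples fewer cells of a type and less RNA per cell cannot be told apart. ZnSO4 replicate 2 stood apart from the other ZnSO4 libraries on the second principal component of the 9 libraries of 6 h (22.37% of the variance), at −33.46 against −17.68 and −21.57. DMSO replicate 3 differed most from its group (3.05 in chi-squared per gene against each of the other DMSO libraries, 1.46 between those). No source used here gives the strand setting, so reads of overlapping antisense genes cannot be told apart.

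Several stress programmes act on the genes described here. When amino acids run short, haem is lacking or unfolded proteins build up in the endoplasmic reticulum (ER), kinases phosphorylate the translation factor eIF2; general translation slows while ATF4 is translated and switches on genes of amino acid synthesis, uptake and tRNA charging. Zinc that enters the cytosol is bound by metallothioneins, whose genes are switched on by the zinc-sensing factor MTF1. Damaged proteins release heat shock factor, which raises chaperone genes, and oxidants or electrophiles stabilise NRF2, which together with loss of the repressor BACH1 raises haem oxygenase and ferritin. Plasma cells secrete large amounts of antibody and are known for a heavy load on the ER.

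The sequences before the starts of 4 genes from the groups that follow are printed as examples, chosen by hand and not by a rule. Each shows letters that these factors are known to bind. They run from 250 bases before the annotated start up to it, 5′ to 3′ in the direction of the gene, from RefSeq (GRCh38.p14), with matches in capitals. In CHAC1 (chr15:40953221-40953470, plus strand) and ASNS (chr7:97872409-97872658, minus strand) capitals mark TGATGNAA, the element read by C/EBP and ATF4 pairs. In HSPA6 (chr1:161524290-161524539, plus strand) they mark the heat shock element, searched as GAA, TTC and GAA each 2 bases apart, or TTC, GAA and TTC at that spacing. In MT2A (chr16:56608334-56608583, plus strand) they mark the metal response core TGCACNC or TGCGCNC.
CHAC1: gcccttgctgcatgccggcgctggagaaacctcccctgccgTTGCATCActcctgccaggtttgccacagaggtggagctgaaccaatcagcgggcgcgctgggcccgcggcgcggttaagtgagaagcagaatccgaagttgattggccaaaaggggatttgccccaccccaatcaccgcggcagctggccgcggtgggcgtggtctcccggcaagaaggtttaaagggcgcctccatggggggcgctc
ASNS: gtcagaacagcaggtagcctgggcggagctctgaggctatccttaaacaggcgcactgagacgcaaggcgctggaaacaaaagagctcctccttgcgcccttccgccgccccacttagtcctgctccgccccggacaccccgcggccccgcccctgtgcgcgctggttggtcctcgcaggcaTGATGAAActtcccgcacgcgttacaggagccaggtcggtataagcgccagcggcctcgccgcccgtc
HSPA6: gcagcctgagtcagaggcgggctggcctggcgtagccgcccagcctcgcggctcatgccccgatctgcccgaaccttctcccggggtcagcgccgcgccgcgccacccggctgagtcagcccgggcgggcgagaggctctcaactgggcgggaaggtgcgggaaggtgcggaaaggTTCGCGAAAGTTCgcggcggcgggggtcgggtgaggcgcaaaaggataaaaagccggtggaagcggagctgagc
MT2A: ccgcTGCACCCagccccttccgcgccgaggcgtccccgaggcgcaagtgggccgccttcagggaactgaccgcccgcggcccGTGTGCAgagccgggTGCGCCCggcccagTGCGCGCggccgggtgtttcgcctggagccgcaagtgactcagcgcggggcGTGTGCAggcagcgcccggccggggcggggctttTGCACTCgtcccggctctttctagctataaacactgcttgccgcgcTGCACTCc
Both strands were searched. CHAC1, ASNS and HSPA6 held 1 match each and MT2A 7. Of all 27305 promoters in the table, 3.19% held the TGATGNAA letters, 0.439% a heat shock element and 24.7% a metal response core in this window. Of the 15 genes named as most raised, 11 had a sequence, and 2 of these (CHAC1 and FUT1) held TGATGNAA; of the 15 named as most lowered, 10 had one, and 1 (HSPA6) held a heat shock element. A metal response core stood in 5 of those 11 and 4 of those 10. Of the 8 metallothioneins tested, 4 had a sequence (MT1B, MT1H, MT1X and MT2A) and all 4 held a metal response core. A match describes the letters in this window only.

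After 6 h the 2 treatments differed at 2661 of 14460 genes (18.4%). GSK-J4 was higher at 1233 genes (8.53%) and lower at 1428 (9.88%), with 142 (0.982%) higher and 116 (0.802%) lower at least 2-fold. The shares of 8.53% and 9.88% are the background for the members called higher and lower in every list below. Genes of the ATF4 pathway led the higher side, with CHAC1, INHBE, SESN2, STC2, DDIT4 and DDIT3 among the 15 most raised. What set them off was not tested. HMOX1, heat shock genes and metallothioneins led the lower side. Scaled by library totals alone, the split was 1528 higher and 1181 lower. The median log2FC over all genes was −0.00, or 0.03 with that scaling. The 3 libraries of one treatment all lay to one side of those of the other at 4755 genes (32.9%). Without ZnSO4 replicate 2 the count was 2044, within 1.5 times of the full one.

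**Figure D1:**
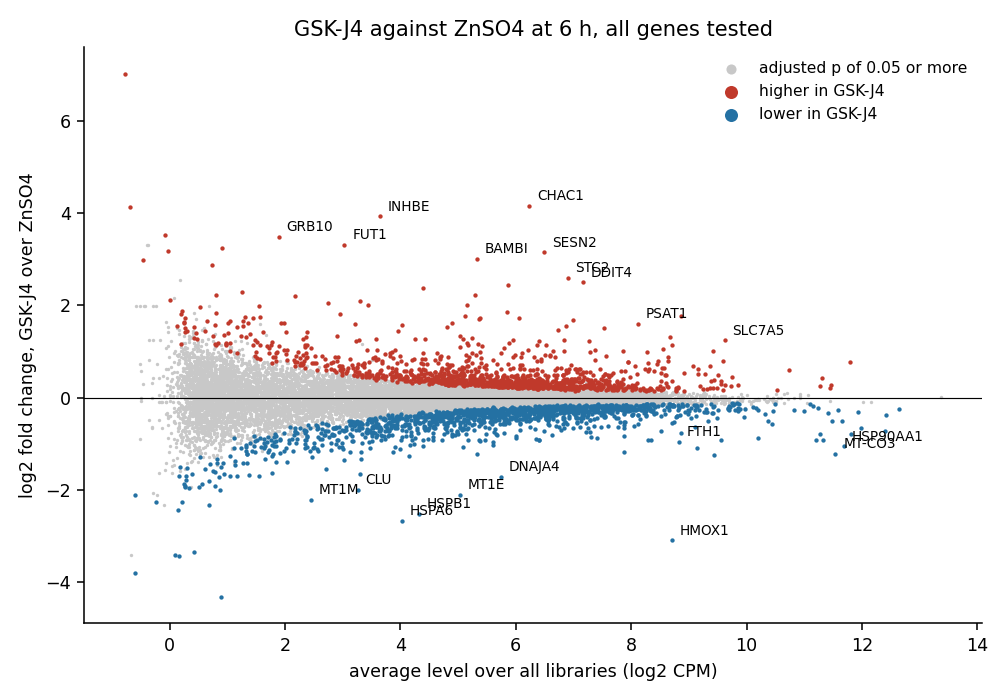
Each point is 1 of the 14460 genes tested at 6 h, with the average level over all libraries (log2 CPM) across and the log2FC of GSK-J4 over ZnSO4 up. Red marks the 1233 genes higher in GSK-J4 and blue the 1428 lower; CHAC1 (4.16) and INHBE (3.93) lie highest and HMOX1 (−3.10) lowest among the genes with a name beside them, while unnamed points further out are genes of low level.

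Transcription factors of the ATF4 pathway were higher in GSK-J4. DDIT3 (ENSG00000175197), the factor CHOP that drives late stress genes, had 29.3, 32.4 and 31.4 CPM in GSK-J4, 5.46, 6.86 and 5.74 CPM in ZnSO4, and 4.12, 5.85 and 5.38 CPM in DMSO. The GSK-J4 libraries lay apart from all others, and ZnSO4 and DMSO overlapped (log2FC 2.37 ± 0.15, edgeR adjusted p = 4.3e-21). ATF3, a repressor and activator induced by many stresses, had 38.8, 40.8 and 46.6 CPM in GSK-J4 against 12, 9.73 and 9.51 CPM in ZnSO4 (2.0 ± 0.14, adjusted p = 8.8e-19). CEBPB, a partner of ATF4, rose with a log2FC of 1.76 and CEBPG, another partner, with 1.02. ATF4 mRNA itself stood at 636, 636 and 627 CPM in GSK-J4 against 401, 437 and 388 CPM in ZnSO4, a smaller difference without overlap (0.63 ± 0.05, adjusted p = 1e-15). TRIB3, a pseudokinase that restrains ATF4, rose with 1.46 ± 0.06 (adjusted p = 4.5e-29). Of the 15 factors and feedback genes tested 9 were higher, 1 was lower and 5 did not pass, with a median log2FC of 0.55 against −0.00 over all genes. The lower one was ATF5 (−0.43), a related factor, and the 4 kinases of eIF2 (EIF2AK1 to EIF2AK4) gave −0.02 to 0.12 without passing.

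Effectors of this pathway were higher in GSK-J4 as well, with a median log2FC of 0.93 over 19 genes. CHAC1 (ENSG00000128965), which degrades glutathione, had 345, 385 and 379 CPM in GSK-J4, 24.3, 21.2 and 16.7 CPM in ZnSO4, and 54.2, 48.0 and 19 CPM in DMSO. GSK-J4 lay far above both other groups (4.16 ± 0.16, edgeR adjusted p = 5.7e-31), and DMSO replicate 3 was close to ZnSO4 while the other 2 DMSO libraries were above it. INHBE, an inhibin subunit secreted under ER stress, had 65.5, 65.1 and 69.9 CPM in GSK-J4 against 5.29, 3.98 and 3.77 CPM in ZnSO4 (3.93 ± 0.17, adjusted p = 2.6e-28). SESN2, a sestrin that restrains mTORC1 when leucine is short, had 267, 289.8 and 297 CPM in GSK-J4 against 31.9, 30.3 and 33.3 CPM in ZnSO4, again with a wide gap between the groups (3.15 ± 0.09, adjusted p = 1.6e-36). DDIT4, another restraint on mTORC1, had 420.3, 436 and 458 CPM in GSK-J4 against 88.8, 77.6 and 66.5 CPM in ZnSO4 (2.50 ± 0.12, adjusted p = 7.9e-26). STC2, a secreted glycoprotein, rose with 2.6 ± 0.08, ADM2, a peptide hormone, with 2.1 ± 0.17, and VEGFA, a vascular growth factor, with 1.51 ± 0.06. Of the 19 effectors, a list that does not hold CHAC1, 16 were higher, 1 was lower (SQSTM1, an autophagy receptor, −0.25) and 2 did not pass.

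**Figure D2:**
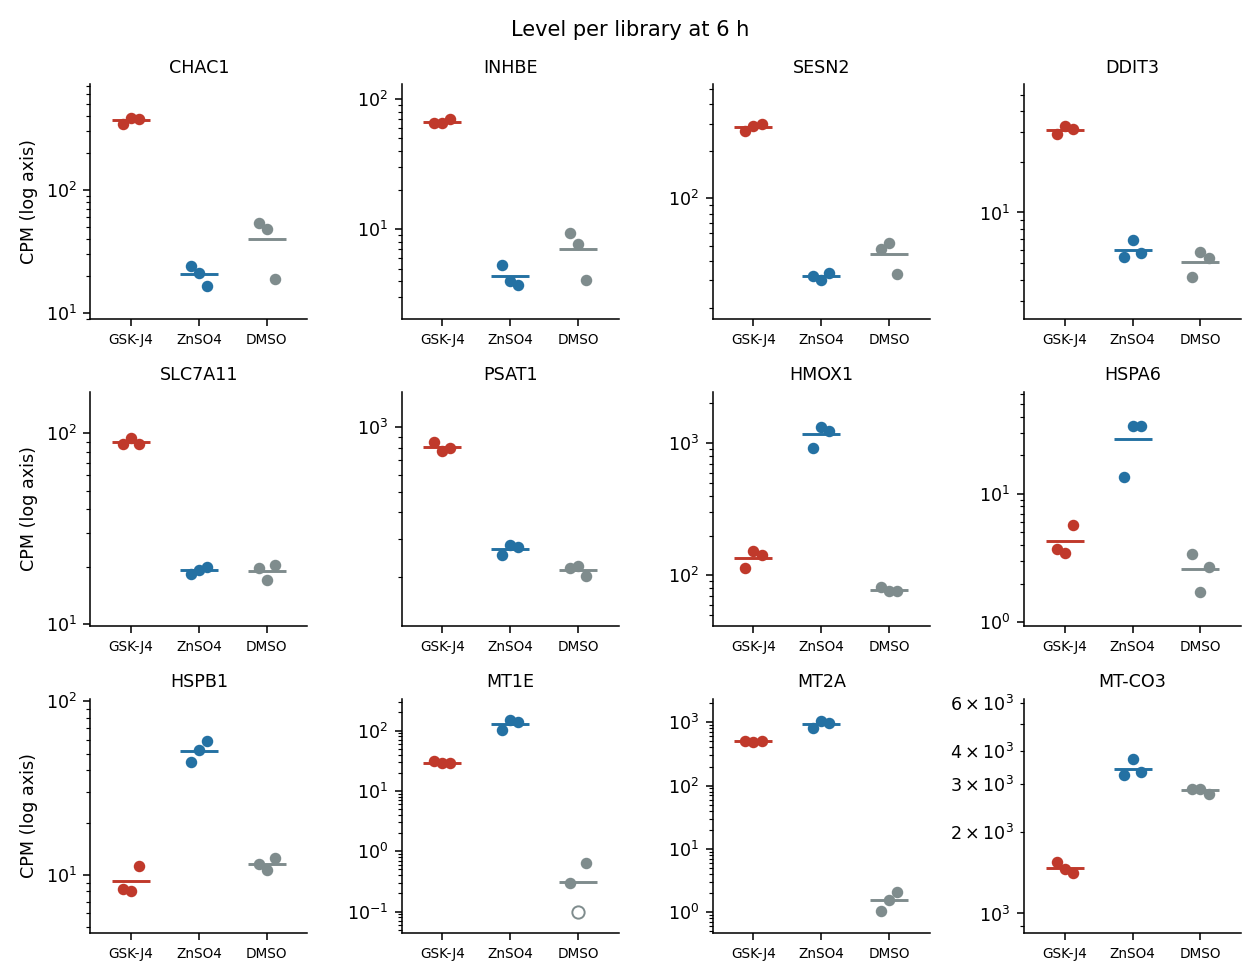
Levels of 12 genes in each library of 6 h, in CPM on log axes whose ranges differ between panels; points are libraries, lines are group means, and the open point for MT1E stands for a library at 0 drawn at the foot of the axis. The 3 GSK-J4 libraries of CHAC1 sit between 345 and 385 CPM and the ZnSO4 libraries between 16.7 and 24.3 CPM; for HMOX1 the order is turned, with 113 to 154 CPM in GSK-J4 and 928 to 1334 CPM in ZnSO4.

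Genes for making, importing and charging amino acids were higher in GSK-J4. PSAT1 (ENSG00000135069) of serine synthesis had 854, 773 and 802 CPM in GSK-J4, 253, 280.5 and 275 CPM in ZnSO4, and 219, 223 and 201 CPM in DMSO. All GSK-J4 libraries were above all ZnSO4 libraries, which were above all DMSO libraries (GSK-J4 over ZnSO4 1.59 ± 0.05, edgeR adjusted p = 6e-34). ASNS, asparagine synthetase, had 267, 247 and 267 CPM in GSK-J4 against 82.7, 98.0 and 86.5 CPM in ZnSO4 (1.55 ± 0.07, adjusted p = 4.5e-27). PCK2, mitochondrial phosphoenolpyruvate carboxykinase, rose with 1.73 ± 0.08, and MTHFD2 of the mitochondrial folate cycle with 1.05 ± 0.05. Of the 19 synthesis genes 13 were higher, 2 were lower (the glutamine synthetase gene GLUL, −0.77, and PYCR3 of proline synthesis, −0.57) and 4 did not pass, with a median of 0.61.

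Among amino acid transporters, SLC7A11, the cystine importer that feeds glutathione synthesis, had 87.1, 94.5 and 88.1 CPM in GSK-J4, 18.3, 19.2 and 20 CPM in ZnSO4, and 19.8, 17 and 20.4 CPM in DMSO. ZnSO4 overlapped DMSO and GSK-J4 stood above both (2.23 ± 0.10, edgeR adjusted p = 5.3e-27). SLC38A2, a carrier of small neutral amino acids, had 971, 934 and 961 CPM in GSK-J4 against 266, 262 and 307 CPM in ZnSO4 (1.78 ± 0.07, adjusted p = 1.2e-30). SLC7A5, which imports leucine, had 1376, 1337 and 1379 CPM in GSK-J4 against 588, 555 and 592 CPM in ZnSO4 (1.24 ± 0.05, adjusted p = 5.7e-31). The glycine carrier gene SLC6A9 rose with 1.85 ± 0.07. Of 14 transporters 10 were higher, 1 was lower (SLC38A5, −0.15) and 3 did not pass, with a median of 0.72. The enzymes that load tRNA in the cytosol were higher in 13 of 20 and lower in 0 (edgeR; 0 also at an unadjusted p under 0.05 and with DESeq2), with a median of 0.50 and GARS1, the glycine enzyme, at 1.00 ± 0.04. Their mitochondrial counterparts had 0 of 17 called and a median of 0.02 by edgeR; 1 member, SARS2 at 0.56 with adjusted p = 0.1, had an unadjusted p under 0.05, and DESeq2 called 0.

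**Figure D3:**
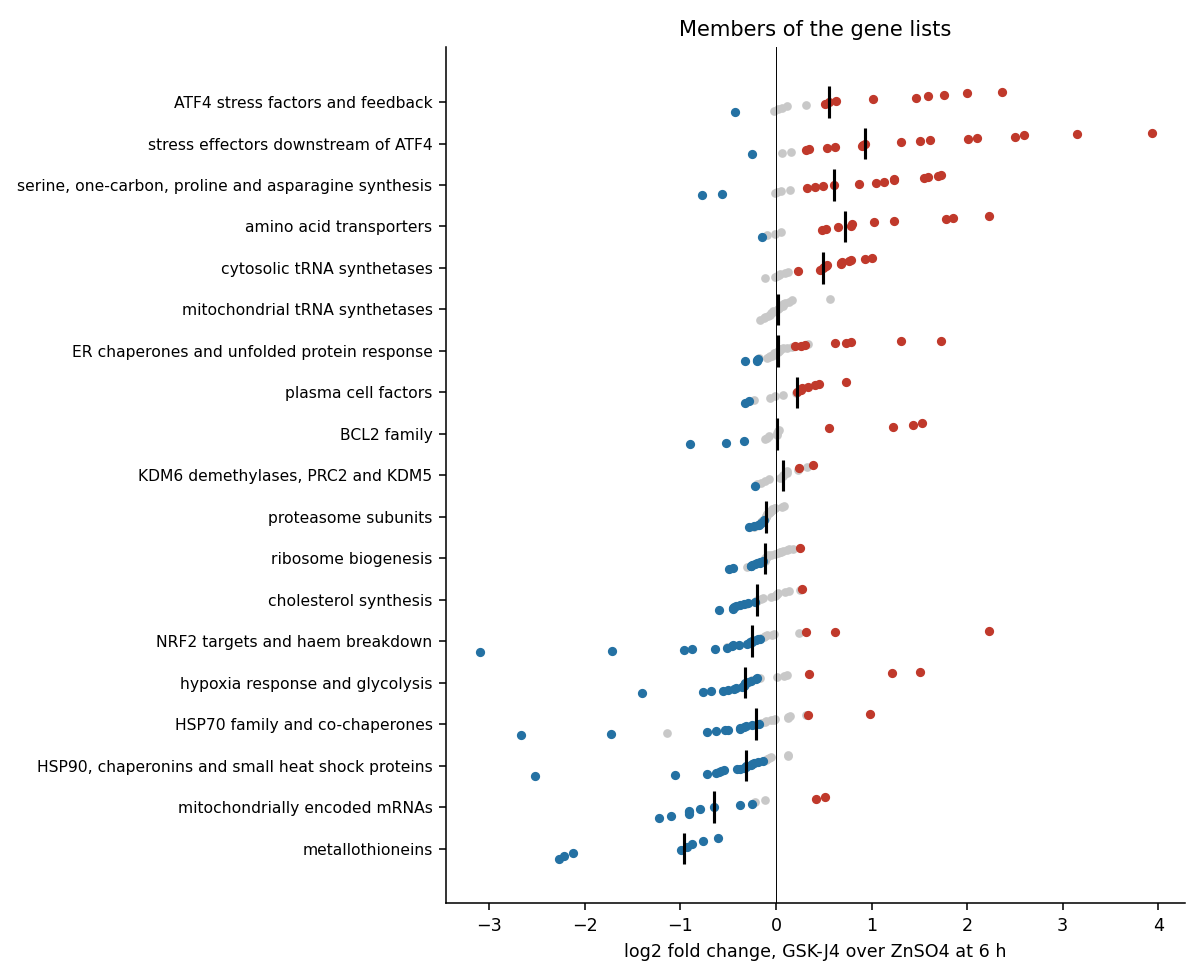
Each point is 1 tested member of a gene list at its log2FC of GSK-J4 over ZnSO4 at 6 h (red higher, blue lower, grey not passing), and black bars are list medians. The 5 lists at the top, of ATF4 factors, their effectors and amino acid synthesis, transport and cytosolic tRNA charging, have medians of 0.50 to 0.93. Metallothioneins at the foot have a median of −0.96, and all 8 lie below 0.

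Of 30 genes of the ER and its stress response, 18 did not pass. ERN1, the sensor kinase IRE1, had 148, 159 and 139.8 CPM in GSK-J4, 44.1, 43.6 and 47.0 CPM in ZnSO4, and 53.5, 48.6 and 56.5 CPM in DMSO. GSK-J4 was above both and the ZnSO4 libraries were below all DMSO libraries (GSK-J4 over ZnSO4 1.73 ± 0.08, edgeR adjusted p = 1.9e-26). HERPUD1, part of the machinery that removes misfolded proteins from the ER, rose with 1.31 ± 0.05, SEL1L of the same machinery with 0.62 ± 0.05, and XBP1, the factor activated by IRE1, with 0.73 ± 0.06. HSPA5, the chaperone BiP, was lower by a small amount (−0.19), and HSP90B1, CALR, CANX and PDIA6 gave −0.09, −0.01, 0.07 and 0.03 without passing. Of 30 ER genes 8 were higher, 4 were lower and 18 did not pass, with a median of 0.03. Over all genes 8.53% were called higher and 9.88% lower.

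In the BCL2 family, which sets the threshold for apoptosis, killers of the BH3-only group were called in both directions. BBC3 (PUMA) had 20.3, 17.4 and 19.1 CPM in GSK-J4 against 7.58, 5.53 and 6.39 CPM in ZnSO4, with no overlap (1.53 ± 0.16, edgeR adjusted p = 4.5e-12). PMAIP1 (NOXA) had 219, 209 and 221 CPM in GSK-J4 against 84.4, 102 and 94.1 CPM in ZnSO4 (1.22 ± 0.08, adjusted p = 4.2e-21). HRK rose with 1.43 ± 0.28 at low levels of 5.08 to 6.72 CPM in GSK-J4 and 2.12 to 2.43 CPM in ZnSO4. BMF had 62.4, 65.4 and 62.5 CPM in GSK-J4, 115, 117 and 124 CPM in ZnSO4, and 68.5, 68.5 and 69.0 CPM in DMSO, so that ZnSO4 was the group apart (−0.90 ± 0.07, adjusted p = 2.4e-16). BCL2, the survival factor, rose with 0.55 ± 0.06. MCL1, on which myeloma cells often depend, overlapped between the groups at 568, 556 and 593 CPM in GSK-J4 and 547, 558 and 574 CPM in ZnSO4 (0.03, adjusted p = 0.74). Of 14 members 4 were higher, 3 were lower and 7 did not pass, with a median of 0.01. Of 18 p53 targets, which include BBC3 and PMAIP1, 4 were higher and 2 lower, and CDKN1A (p21) at −0.47 did not pass. For both lists, the shares called over all genes were 8.53% higher and 9.88% lower.

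All 8 metallothioneins tested were higher than in DMSO under both treatments, and all 8 were lower in GSK-J4 than in ZnSO4 (median −0.96). Metallothioneins are small cysteine-rich proteins that bind zinc and copper. MT2A (ENSG00000125148) had 514, 482 and 500.2 CPM in GSK-J4, 819.6, 1050.2 and 979 CPM in ZnSO4, and 1.03, 1.55 and 2.06 CPM in DMSO. The 3 groups did not overlap, and the gap between the treatments was small beside the gap of either to DMSO (−0.93 ± 0.09, edgeR adjusted p = 8.5e-14). MT1X had 761, 756 and 762 CPM in GSK-J4 against 1150.5, 1419 and 1291 CPM in ZnSO4 (−0.76 ± 0.08, adjusted p = 2e-12), and 6.49 to 7.92 CPM in DMSO. MT1E had 30.9, 28.6 and 28.8 CPM in GSK-J4 against 102, 147 and 137 CPM in ZnSO4, and MT1M had 5.44, 4.82 and 3.60 CPM against 16.7, 25.4 and 24.3 CPM. These 2 differed more than MT2A (log2FC −2.12 ± 0.12 and −2.22 ± 0.21, adjusted p = 8e-23 and 6.5e-13), as did the low MT1B (−2.27). MT1G at 1719, 1649 and 1702 CPM in GSK-J4 against 2782, 3425 and 3155 CPM in ZnSO4 gave −0.88 ± 0.13, a call that was lost with DESeq2 (adjusted p = 0.41), which called 6 of the 8 and gave MT1B no adjusted p. Metallothionein genes are near copies, and how their reads were divided is uncertain.

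Of 18 zinc carriers 4 were higher and 3 lower in GSK-J4, against 8.53% and 9.88% over all genes. SLC30A1, the exporter of zinc at the cell surface, had 228, 230.3 and 239.6 CPM in GSK-J4, 249, 265 and 293 CPM in ZnSO4, and 58.8, 53.2 and 73.0 CPM in DMSO. Both treatments lay far above DMSO and close to each other (−0.21 ± 0.07, edgeR adjusted p = 0.018), and that call was lost without GSK-J4 replicate 1 or 2 or ZnSO4 replicate 3. SLC30A2, a vesicular zinc transporter, was at 0.689 to 0.859 CPM in GSK-J4, 3.11 to 5.46 CPM in ZnSO4 and 0 in all DMSO libraries (−2.43 ± 0.42, adjusted p = 1.1e-05). SLC39A10, a zinc importer, had 19.3, 20.3 and 20.3 CPM in GSK-J4, 10.8, 11.3 and 11.8 CPM in ZnSO4, and 26, 32 and 24.4 CPM in DMSO, with GSK-J4 between the other groups (0.82 ± 0.13, adjusted p = 2.1e-06). Of 7 exporters 1 was higher and 3 lower (median −0.09), and of 11 importers 3 were higher and 0 lower (edgeR; 2 at an unadjusted p under 0.05, DESeq2 0; median 0.17).

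Of 28 genes of the NRF2 programme and haem breakdown, 17 were lower in GSK-J4. HMOX1 (ENSG00000100292), the haem oxygenase, had 113, 154 and 142 CPM in GSK-J4, 928, 1334 and 1242 CPM in ZnSO4, and 81.6, 75.8 and 76.6 CPM in DMSO. Its 8.6-fold difference was the largest among the lowered genes named, and GSK-J4 was still above DMSO in all libraries (GSK-J4 over ZnSO4 −3.10 ± 0.11, edgeR adjusted p = 2.3e-32). FTH1, the ferritin heavy chain that stores iron, had 401, 458 and 451 CPM in GSK-J4, 821, 867 and 859 CPM in ZnSO4, and 275, 247 and 244 CPM in DMSO. Here GSK-J4 lay between the other groups (−0.96 ± 0.07, adjusted p = 1.7e-17). NQO1, a quinone reductase, had 122, 137 and 145 CPM in GSK-J4 and 227 to 266 CPM in ZnSO4, with DMSO at 128 to 134 CPM inside the GSK-J4 range (−0.88 ± 0.07, adjusted p = 1.3e-15). GCLM of glutathione synthesis gave −0.64 ± 0.06 and OSGIN1, an oxidative stress gene, −1.72. GCLM in GSK-J4 (146 to 161 CPM) lay between ZnSO4 (227 to 251 CPM) and DMSO (116 to 135 CPM). Of 28 genes 3 were higher (SLC7A11, the repressor BACH1 at 0.62, and NFE2L2, which encodes NRF2, at 0.31), 17 were lower and 8 did not pass (the biliverdin reductase genes BLVRA at −0.51 and BLVRB at −0.16 among them), with a median of −0.25.

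Heat shock genes were lower in GSK-J4. HSPA6 (ENSG00000173110), an HSP70 gene expressed almost only under stress, had 3.72, 3.44 and 5.72 CPM in GSK-J4, 13.6, 33.6 and 33.8 CPM in ZnSO4, and 3.38, 1.72 and 2.69 CPM in DMSO. ZnSO4 replicate 1 was lower than the other ZnSO4 libraries yet above all of GSK-J4 (−2.67 ± 0.29, edgeR adjusted p = 2.6e-11). HSPB1, the small heat shock protein HSP27, had 8.30, 8.09 and 11.2 CPM in GSK-J4 against 44.9, 52.4 and 58.7 CPM in ZnSO4 and 10.7 to 12.5 CPM in DMSO (−2.52 ± 0.13, adjusted p = 7.1e-25). DNAJA4, a co-chaperone of HSP70, had 29.6, 30.3 and 40.7 CPM in GSK-J4 against 80.2, 115 and 133 CPM in ZnSO4 and 37.2 to 43.2 CPM in DMSO (−1.73 ± 0.12, adjusted p = 2.3e-18). For HSPB1 and DNAJA4 the GSK-J4 and DMSO libraries overlapped.

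Abundant chaperones followed with smaller differences. HSP90AA1, the inducible HSP90, had 2267, 2261 and 2321 CPM in GSK-J4, 4076, 5006 and 5207 CPM in ZnSO4, and 3463, 3531 and 2825 CPM in DMSO, so that GSK-J4 was the lowest and ZnSO4 the highest group (−1.06 ± 0.07, edgeR adjusted p = 3e-19). HSP90AB1, the constitutive form, fell with −0.72 ± 0.04, HSPH1, a nucleotide exchange factor of HSP70, with −0.72 ± 0.08, and HSPD1, the mitochondrial chaperonin, with −0.58 ± 0.05. HSPA8, the constitutive HSP70, had 1929.7, 2086 and 2132 CPM in GSK-J4, 2737, 3165 and 2765 CPM in ZnSO4, and 4980.5, 5040.2 and 3178 CPM in DMSO (GSK-J4 over ZnSO4 −0.50 ± 0.09, adjusted p = 2.8e-05). HSP90 and HSPA8 have pseudogenes that may take some of their reads. Of 26 genes of the HSP70 family and its co-chaperones 12 were lower, 2 were higher (HSPA13, 0.98, and DNAJB12, 0.34, both of the ER or its membrane) and 12 did not pass (median −0.21). Of 23 genes of HSP90, chaperonins and small heat shock proteins 17 were lower, 0 were higher (edgeR; 1 at an unadjusted p under 0.05, DESeq2 0) and 6 did not pass (median −0.31). DNAJB1, the main HSP40, overlapped between the treatments (−0.24, adjusted p = 0.38) but passed in the 6 libraries alone (−0.23, adjusted p = 0.011) and without the filter on low counts (−0.22, adjusted p = 0.021). The call of BAG3 (−0.53, adjusted p = 0.037) was lost with DESeq2 and without GSK-J4 replicate 1, ZnSO4 replicate 2 or ZnSO4 replicate 3. HSPA1A had 0 counts, and HSPA1B 7 counts over the GSK-J4 and 3 over the ZnSO4 libraries, so neither was tested. These genes are near copies whose reads may have gone uncounted, so the low counts do not show that they were silent. Proteasome subunits were lower in 6 of 33 by edgeR, against 9.88% over all genes, and higher in 0 (0 also at an unadjusted p under 0.05 and with DESeq2). Their median was −0.10, and PSMD1 had the largest difference (−0.28).

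Glycolysis genes were lower in GSK-J4, while VEGFA of the same hypoxia list was higher. LDHA, lactate dehydrogenase, had 1007, 968 and 946 CPM in GSK-J4, 1325, 1438 and 1383 CPM in ZnSO4, and 1190.3, 1221 and 1349 CPM in DMSO, with GSK-J4 below every other library (−0.50 ± 0.05, edgeR adjusted p = 3e-13). GAPDH had 3481, 3356 and 3368 CPM in GSK-J4 against 4083, 4479 and 4152 CPM in ZnSO4 (−0.32 ± 0.05, adjusted p = 1.5e-07), with DMSO at 3388 to 3628 CPM overlapping GSK-J4. EGLN1, the oxygen sensor PHD2, had 52.7, 46.7 and 49.6 CPM in GSK-J4 against 74.6, 92.0 and 86.4 CPM in ZnSO4 and 48.4 to 51.2 CPM in DMSO (−0.76 ± 0.08, adjusted p = 4.2e-12). P4HA2, a collagen prolyl hydroxylase induced by hypoxia, had 6.87, 6.89 and 9.32 CPM in GSK-J4 against 17.8, 25.2 and 28.2 CPM in ZnSO4 (−1.65 ± 0.17, adjusted p = 8.7e-12). Of 25 genes of the list 17 were lower, 3 were higher (VEGFA, ANKRD37 at 1.21 and MXI1 at 0.35) and 5 did not pass (HIF1A at 0.08 among them), with a median of −0.32.

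Most mRNAs encoded in mitochondrial DNA were lower in GSK-J4, and 2 were higher. MT-CO3 (ENSG00000198938), a subunit of cytochrome c oxidase, had 1549, 1465 and 1416 CPM in GSK-J4, 3255, 3708 and 3333 CPM in ZnSO4, and 2879, 2895 and 2774 CPM in DMSO. GSK-J4 was below and ZnSO4 above all DMSO libraries (GSK-J4 over ZnSO4 −1.22 ± 0.06, edgeR adjusted p = 1.3e-27). MT-ND3 and MT-ND2 of complex I fell with −1.10 ± 0.08 and −0.91 ± 0.06, and MT-ATP6 of the ATP synthase with −0.91 ± 0.05. MT-ND5 had 2479, 2815 and 2622 CPM in GSK-J4 against 2149, 1729.7 and 2023 CPM in ZnSO4 (0.42 ± 0.06, adjusted p = 1.3e-07), and MT-ND6, the mRNA read from the light strand, averaged 675 ± 39 CPM in GSK-J4 and 476 ± 31.9 CPM in ZnSO4 (SD; 0.51 ± 0.06). Of 13 mRNAs 9 were lower, 2 were higher and 2 did not pass (MT-ND1, −0.11, and MT-ND4L, −0.22), with a median of −0.65. The large ribosomal RNA gene MT-RNR2 went the other way, with 4203, 4302 and 4237 CPM in GSK-J4 against 2355, 2675 and 2454 CPM in ZnSO4 (0.77 ± 0.06, adjusted p = 2.6e-16). Counts of all mitochondrial genes together made up 2.998 to 3.135% of the GSK-J4 libraries and 3.703 to 3.836% of the ZnSO4 libraries, against 3.471 to 3.545% in DMSO. Nuclear copies of mitochondrial DNA may take some of these reads.

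**Figure D4:**
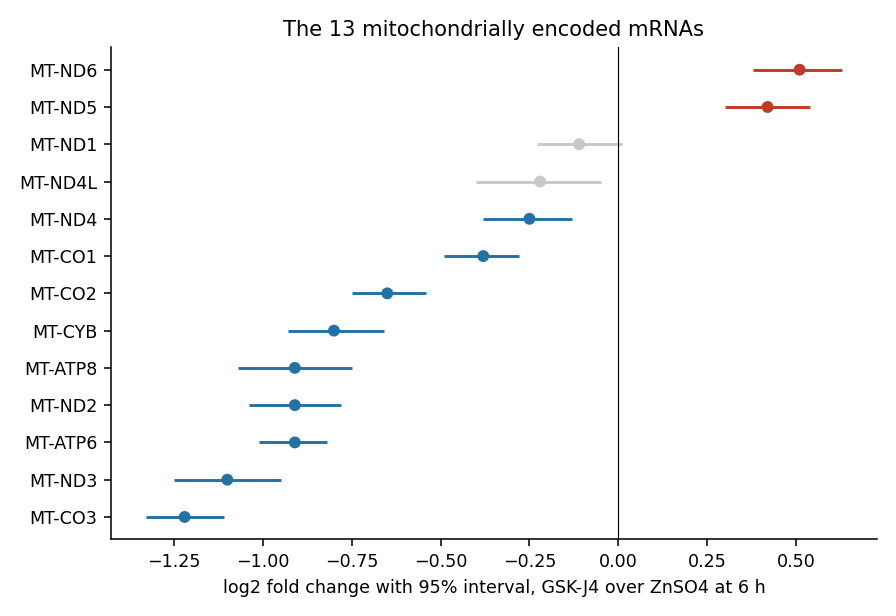
The log2FC of GSK-J4 over ZnSO4 at 6 h for the 13 mRNAs encoded in mitochondrial DNA, with 95% intervals (blue lower, red higher, grey not passing). MT-CO3 lies lowest at −1.22, and MT-ND5 and MT-ND6 lie above 0 at 0.42 and 0.51.

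Most genes of the lists of ribosome biogenesis, replication and mitosis did not pass. MYC had 561, 545 and 526 CPM in GSK-J4, 781, 704 and 701 CPM in ZnSO4, and 849, 834 and 1159 CPM in DMSO, so that GSK-J4 was lowest (GSK-J4 over ZnSO4 −0.42 ± 0.09, edgeR adjusted p = 0.00032). MXD1, which competes with MYC for its partner MAX, rose with 0.71 ± 0.10. Of 29 genes of ribosome biogenesis 10 were lower, 1 was higher and 18 did not pass (median −0.11), with NOP16 at −0.49 ± 0.08 and NPM1 at −0.26 ± 0.05; the lower count was 6 without ZnSO4 replicate 2 and 5 without the filter on low counts. CCNE1, cyclin E1, had 29.9, 25.1 and 26.3 CPM in GSK-J4 against 46.5, 57.3 and 51.3 CPM in ZnSO4 (−0.92 ± 0.10, adjusted p = 4.7e-11). CCND2, cyclin D2, had 507, 502 and 509.7 CPM in GSK-J4 against 309, 348 and 314 CPM in ZnSO4 and 412 to 438 CPM in DMSO (0.65 ± 0.05, adjusted p = 2.7e-15). Genes of replication and the G1/S step were lower in 8 of 25 and higher in 0 (edgeR; 1 at an unadjusted p under 0.05, DESeq2 0), and those of G2/M lower in 5 of 28 and higher in 1. That count of 5 was 3 without GSK-J4 replicate 3 or ZnSO4 replicate 1, and 9.88% were called lower over all genes. Cholesterol synthesis genes were lower in 9 of 23 and higher in 1 (median −0.20), HMGCS1, an early enzyme of the pathway, with −0.45 ± 0.07.

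Plasma cell factors were higher in GSK-J4 in 7 of 14 and lower in 2 (median 0.22). IRF4, on which myeloma cells depend, had 956, 908 and 908 CPM in GSK-J4, 707, 667 and 659.9 CPM in ZnSO4, and 770.3, 786 and 801 CPM in DMSO, with GSK-J4 above and ZnSO4 below the vehicle (GSK-J4 over ZnSO4 0.45 ± 0.06, edgeR adjusted p = 2.8e-08). XBP1, which expands the secretory apparatus, had 458, 465 and 489 CPM in GSK-J4 against 282, 292 and 279 CPM in ZnSO4 (0.73 ± 0.06, adjusted p = 6.7e-16). ELL2, an elongation factor for antibody mRNA, gave 0.33 ± 0.05. Its GSK-J4 libraries (228 to 245 CPM) overlapped DMSO (235 to 244 CPM), with ZnSO4 lower (183 to 191 CPM). The call of PRDM1, the factor BLIMP1 (0.22, adjusted p = 0.015), was lost without ZnSO4 replicate 2 or 3. Without ZnSO4 replicate 2 the count of higher factors was 4. Over DMSO, 3 of the 14 were higher and 3 lower in GSK-J4 (median 0.05), and 0 higher and 6 lower in ZnSO4 (median −0.16). Of 19 surface antigens 3 were higher and 2 lower than in ZnSO4, against 8.53% and 9.88% over all genes. The higher ones were CD28, a costimulatory receptor (0.56 ± 0.13), SLAMF7 (0.37) and ITGA4 (0.19). The lower ones were CD44, an adhesion receptor (−0.52 ± 0.10), and CCR1 (−0.52 ± 0.12). TNFRSF17 (BCMA), CD38 and SDC1 gave 0.23, 0.12 and −0.13 without passing.

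KDM6A and KDM6B, which encode KDM6 demethylases that GSK-J4 is known to inhibit, did not pass. KDM6A had 37.3, 37.4 and 35.6 CPM in GSK-J4 against 34.2, 27.2 and 32.1 CPM in ZnSO4 (0.23 ± 0.10, edgeR adjusted p = 0.12). KDM6B had 16.9, 20.7 and 22.2 CPM in GSK-J4 against 14.6, 16.1 and 16.6 CPM in ZnSO4 (0.32 ± 0.14, adjusted p = 0.12; 0.44 with adjusted p = 0.048 without GSK-J4 replicate 1). EZH2, the H3K27 methyltransferase, overlapped at 204, 195 and 185 CPM in GSK-J4 and 192, 188 and 190.0 CPM in ZnSO4, while both lay above DMSO at 155 to 163 CPM. Of 14 genes of KDM6, the EZH2 complex and KDM5, 2 were higher (EZH1, 0.39, and KDM5A, 0.24), 1 was lower (EED, −0.22) and 11 did not pass, and the calls of KDM5A and EED were each lost without some of the libraries. Among 14 other JmjC demethylase genes 4 were higher and 1 lower, against 8.53% and 9.88% over all genes. KDM4A, a demethylase of H3K9 and H3K36, had 76.6, 71.3 and 75.0 CPM in GSK-J4 against 31.6, 32.7 and 34.1 CPM in ZnSO4 and 30.1 to 36.3 CPM in DMSO (1.18 ± 0.09, adjusted p = 1.6e-16). KDM7A had 6.73, 6.89 and 8.47 CPM in GSK-J4 against 3.00, 1.33 and 3.44 CPM in ZnSO4 (1.43 ± 0.27, adjusted p = 3.7e-05).

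Signalling genes were split. JUN, a subunit of AP-1, had 31.8, 25.7 and 33.3 CPM in GSK-J4 against 42.7, 45.8 and 46.4 CPM in ZnSO4 (−0.57 ± 0.10, edgeR adjusted p = 6.3e-06), and 2 of 20 immediate early genes were higher and 5 lower, against 8.53% and 9.88% over all genes; DESeq2 called 1 higher. EGR1 overlapped at 4.82 to 7.30 CPM in GSK-J4 and 4.23 to 7.54 CPM in ZnSO4 (0.01, adjusted p = 0.99). TIPARP, an ADP-ribosyltransferase gene under the aryl hydrocarbon receptor, had 75.6, 78.7 and 78.0 CPM in GSK-J4, 122, 133 and 133 CPM in ZnSO4, and 131 to 140.1 CPM in DMSO, so that ZnSO4 was close to the vehicle (−0.74 ± 0.07, adjusted p = 3.4e-14). BAMBI, a decoy receptor of the TGF-beta family, had 159, 152 and 149 CPM in GSK-J4, 19.9, 19.2 and 17.9 CPM in ZnSO4, and 29.5, 28.8 and 16.6 CPM in DMSO (3.01 ± 0.11, adjusted p = 4e-33). ID1, a target of BMP signalling, had 2.15, 2.41 and 1.91 CPM in GSK-J4 against 4.41, 7.96 and 6.88 CPM in ZnSO4 (−1.54 ± 0.27, adjusted p = 1.2e-05). Of 17 genes of TGF-beta and BMP signalling 1 was higher and 6 lower; the call of ID3 (−1.09) was lost without GSK-J4 replicate 1 or 3 or ZnSO4 replicate 1 or 3. ERK feedback genes were lower in 5 of 15 and higher in 1, and NF-kB genes lower in 5 of 18 and higher in 2, against 8.53% called higher over all genes; DESeq2 called 0 NF-kB genes higher. Each of these counts of 5 was 3 without 1 of several libraries (GSK-J4 replicate 2 or 3 or ZnSO4 replicate 3 for ERK feedback, GSK-J4 replicate 2 or ZnSO4 replicate 1 or 2 for NF-kB). Interferon-stimulated genes were higher in 1 and lower in 2 of 15, KLF and SP factors in 2 and 3 of 15, autophagy and lysosome genes in 7 and 5 of 28, iron and copper genes in 2 and 3 of 13, glutathione breakdown and export genes in 1 and 2 of 10, MYC partners in 2 and 1 of 12 and D cyclins with CDK inhibitors in 3 and 2 of 12.

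Other genes among the 15 most raised had roles outside these lists. GRB10, an adaptor that restrains insulin and mTORC1 signalling, had 16.5, 18.6 and 16.7 CPM in GSK-J4, 1.59, 1.33 and 1.64 CPM in ZnSO4, and 1.47, 0.861 and 3.16 CPM in DMSO (3.48 ± 0.27, edgeR adjusted p = 7e-17). FUT1, a fucosyltransferase of the H blood group antigen, had 36.3, 38.4 and 38.8 CPM in GSK-J4 against 4.41, 2.65 and 4.10 CPM in ZnSO4 (3.31 ± 0.18, adjusted p = 2.3e-23). TSC22D3, the leucine zipper protein GILZ known as a glucocorticoid target, had 136, 114 and 119 CPM in GSK-J4 against 24.3, 19.5 and 23.9 CPM in ZnSO4 (2.44 ± 0.09, adjusted p = 3.9e-32). TCIM and ISL2 (a homeobox factor) rose with 2.30 and 2.05, at levels of 1.23 to 5.53 CPM in ZnSO4. On the lower side, CLU, the extracellular chaperone clusterin, had 8.87, 4.82 and 6.99 CPM in GSK-J4 against 23.3, 34.5 and 27.5 CPM in ZnSO4 and 4.11 to 4.48 CPM in DMSO (−2.01 ± 0.17, adjusted p = 8.8e-15). ABCB1, the drug efflux pump P-glycoprotein, had 1.14, 1.89 and 1.48 CPM in GSK-J4 against 4.23, 4.42 and 5.74 CPM in ZnSO4 (−1.69 ± 0.34, adjusted p = 9.7e-05). The mitochondrial tRNA gene MT-TL2 gave −1.64, at 1.72, 1.38 and 0.424 CPM in GSK-J4 against 3.53, 3.98 and 4.26 CPM in ZnSO4. RHOV, HAPLN3, MIR193BHG and GJA3, at −1.71, −1.70, −1.46 and −1.43, were under 5 CPM in all 6 libraries. Their lowest GSK-J4 libraries, at 0.212, 0.517, 0.429 and 0.517 CPM in that order, were about at the floor of detection or below it. Each of these 4 calls was lost without 1 of the libraries, and RHOV was −2.53 without GSK-J4 replicate 1.

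With immunoglobulin genes and genes without a symbol left out, the most abundant genes called higher were MT-RNR2, MT-ND5 and 3 nuclear genes that act in translation. EEF2, the elongation factor that moves the ribosome, had 2638, 2643 and 2703 CPM in GSK-J4 against 2254, 2138 and 2198 CPM in ZnSO4 (0.28 ± 0.04, edgeR adjusted p = 5e-07), EEF1A1 gave 0.24 ± 0.05 and PABPC1, which binds poly(A) tails, 0.20 ± 0.04. For EEF2 and PABPC1 the DMSO libraries lay at 2553 to 2565 and 2733 to 2875 CPM, so that ZnSO4 was the group apart. EEF1A1 has processed pseudogenes that may share its reads.

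Set against the vehicle, GSK-J4 changed 2947 genes at 6 h (20.4%; 1422 higher, 9.83%, and 1525 lower, 10.5%) and ZnSO4 1348 (9.32%; 696 higher, 4.81%, and 652 lower, 4.51%). Scaled by library totals alone the split for GSK-J4 was 1791 higher and 1117 lower, and with DESeq2 that for ZnSO4 was 561 higher and 770 lower. These comparisons share their libraries with the direct one and with each other, so their values are only set side by side. Without DMSO replicate 3, an alternative chosen after seeing the data, the counts were 2262 for GSK-J4 and 921 for ZnSO4, and without ZnSO4 replicate 3 the count for ZnSO4 was 876. The stress effectors of ATF4 had a median log2FC over DMSO of 1.31 in GSK-J4 and 0.02 in ZnSO4, and amino acid transporters of 0.73 in GSK-J4 and −0.07 in ZnSO4. HSP90 and small heat shock genes had −0.31 in GSK-J4 and −0.01 in ZnSO4, genes of hypoxia and glycolysis −0.10 in GSK-J4 and 0.14 in ZnSO4, and mitochondrially encoded mRNAs −0.52 in GSK-J4 and 0.12 in ZnSO4.

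The direct difference itself changed with time. At 1 h 96 genes were called between the treatments (0.664%), at 3 h 1462 (10.1%), at 6 h the 2661 described above and at 24 h 3546 (24.5%). At 3 h GSK-J4 was higher at 577 (3.99%) and lower at 885 (6.12%), and at 24 h higher at 1734 and lower at 1812 (12.5%). A test of the change in the difference called 1062 genes between 3 and 6 h (7.34%) and 1076 between 6 and 24 h (7.44%). The change was upward at 639 (4.42%) and downward at 423 (2.93%) of the first, against 564 and 573 with library totals alone, and upward at 537 (3.71%) and downward at 539 (3.73%) of the second, against 679 and 389. The stress effectors of ATF4 had a median difference of −0.02 at 3 h, 0.93 at 6 h and 0.81 at 24 h, and cytosolic tRNA synthetases of 0.08, 0.50 and 0.37. Metallothioneins stayed lower in GSK-J4 in 8 of 8 at 3, 6 and 24 h (medians −1.31, −0.96 and −1.42).

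Among the genes named, SESN2 changed most between 3 and 6 h, with a difference of 0.25 at 3 h and 3.15 at 6 h (change 2.91, edgeR adjusted p = 5.8e-28), and it stood at 1.05 at 24 h. DDIT4 was lower in GSK-J4 at 1 h (−1.25), higher at 6 h (2.50), and gave −0.09 at 3 h and 0.12 at 24 h without passing. CHAC1 gave 1.67, 4.16 and 2.15 at 3, 6 and 24 h and INHBE 1.11, 3.93 and 2.68. PSAT1 gave 0.09, 1.59 and 1.66, without a drop at 24 h. HSPA6 stood at −5.06 at 3 h, −2.67 at 6 h and 0.01 at 24 h, where the treatments no longer differed by the test, and HMOX1 gave −3.94, −3.10 and −1.30. BAG3, a co-chaperone of protein clearance, gave −2.95, −0.53 and 0.25, and HSPB1 −1.92, −2.52 and −1.68. MT-CO3 gave −0.86, −1.22 and −0.94, lower in GSK-J4 at each of the 3 times.

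**Figure D5:**
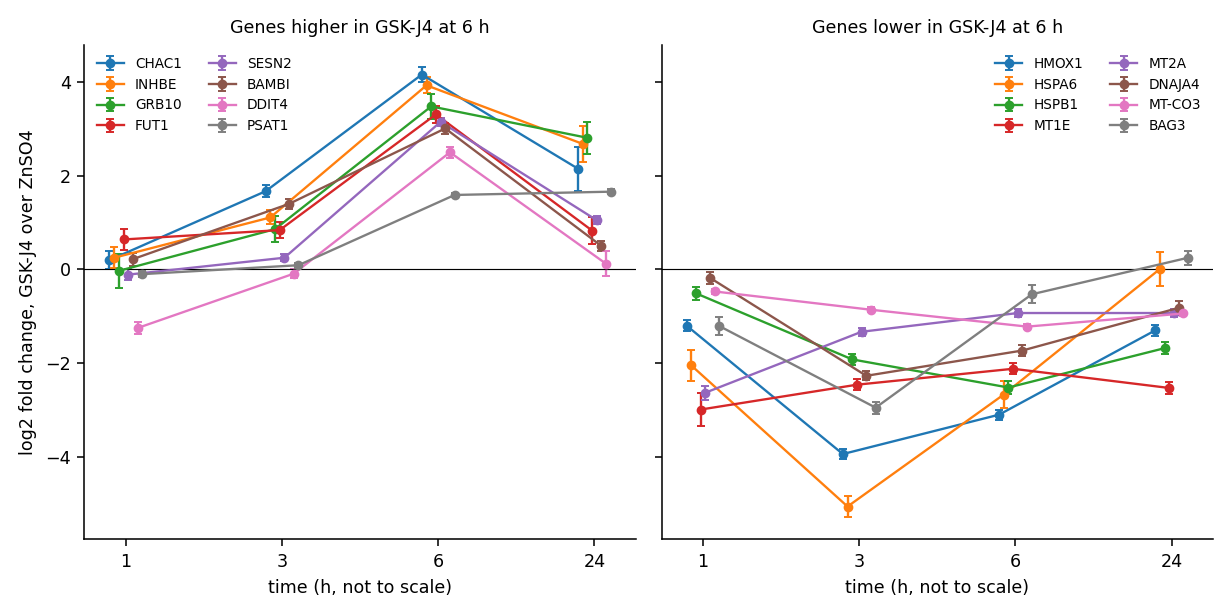
The log2FC of GSK-J4 over ZnSO4 at 1, 3, 6 and 24 h (times evenly spaced, not to scale) for 8 genes higher and 8 genes lower in GSK-J4 at 6 h; bars are standard errors. CHAC1, INHBE, SESN2 and DDIT4 peak at 6 h, PSAT1 stays at 1.66 at 24 h, and HSPA6 climbs to 0.01 at 24 h, against −5.06 at 3 h.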

How the data were processed

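RNA of 39 JJN3 libraries (13 groups of 3) was sequenced, and the authors deposited 1 table of raw counts per gene for 57773 Ensembl identifiers. Reads were aligned with HISAT2 2.1.0 and the build hg19 is named, per the submitters' processing notes, while no source used here gives the counter, annotation or strand setting. Gene names came from a name table for 51996 identifiers and from GENCODE for 342 more, and 5435 had none. Counts were filtered with filterByExpr (minimum count 10), scaled with TMM and fitted over all groups with the quasi-likelihood test of edgeR 4.0.16 (R 4.3.3, limma 3.58.1), with 26 residual degrees of freedom and Benjamini-Hochberg adjustment over 14460 genes; DESeq2 1.42.0 was an alternative. Further alternatives were scaling by RLE or by totals, dropping the filter, fits of the 6 or 9 libraries of 6 h alone, and leaving out each library.

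Named genes were the 15 largest differences of each sign at an average log2 CPM of at least 1 without overlap between groups, a preset set, up to 4 members per list by p, the 6 largest changes of each sign between times and the 5 most abundant called each way; further list members were named after their values were seen. Immunoglobulin genes and genes without a symbol were left out of the choices by size of difference, by change between times and by abundance. The 44 lists held 796 entries, of which 790 matched. Members and lists were chosen with earlier results of these data known.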

Additional observations from a re-analysis of the deposited data

Results flagged for a closer look

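The difference between GSK-J4 and ZnSO4 was itself compared between times (edgeR, a contrast of contrasts), and the genes with the largest changes are given here as log2 values. Between 3 and 6 h it changed at 1062 genes. It shifted toward GSK-J4 for SESN2 by 2.91, INHBE by 2.82, FOS, an AP-1 subunit, by 2.81, GRB10 by 2.61, DDIT4 by 2.59 and CHAC1 by 2.49. FOS was lower in GSK-J4 at 3 h (−2.0) and gave 0.82 at 6 h (edgeR adjusted p = 0.035), where the libraries overlapped and the call was lost with DESeq2 (adjusted p = 0.13), without GSK-J4 replicate 1 (0.32) and without ZnSO4 replicate 1 (0.56) or 2 (0.88). The change was −1.70 ± 0.53 for CCR2, a chemokine receptor with a difference of 1.71 at 3 h and 0.02 at 6 h. For SIGLEC9, a sialic acid receptor, it was −1.57 ± 0.51, at means of 1.11 CPM in GSK-J4 and 2.12 CPM in ZnSO4 at 6 h. It was −1.32 ± 0.39 for CENATAC-DT, −1.31 ± 0.30 for TFAP2C, −1.22 ± 0.32 for BCAR1 and −1.19 ± 0.23 for MAP3K21.

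Between 6 and 24 h it changed at 1076 genes. The change was −2.51 for BAMBI, −2.48 for FUT1, −2.39 for ISL2, −2.38 for DDIT4, −2.11 for MIRLET7A1HG and −2.10 for SESN2. It was 2.96 ± 0.80 for GVINP1, 2.68 ± 0.48 for HSPA6 and 2.55 ± 0.58 for IQANK1. For CAV1, the caveolin gene, it was 2.26 ± 0.68, for TEF 1.89 ± 0.54 and for HMOX1 1.80 ± 0.15. GVINP1, IQANK1, CAV1 and TEF were low at 6 h, with means of 2.44, 2.62, 1.02 and 1.46 CPM in GSK-J4. Their means in ZnSO4 were 2.94, 3.76, 1.88 and 3.62 CPM. MIRLET7A1HG was low as well (2.32 CPM in GSK-J4 and 1.17 CPM in ZnSO4, change −2.11 ± 0.56).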

How the results depend on the processing

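The direct count at 6 h stayed within 1.5 times of 2661 in all 13 alternatives, with 1967 genes without the filter on low counts, 2419 with DESeq2, 2788 in the 6 libraries alone and 2044 to 2312 when 1 GSK-J4 or ZnSO4 library was left out. Of the 2661 calls, 72.2 to 97.2% kept their call and direction under each alternative set at the start and 0 were called in the opposite direction. Without DMSO replicate 3, chosen after seeing the data, 99.6% kept it. Of 174 named genes called, 150 were called in all 13 settings. The count for ZnSO4 against DMSO was 876 to 1323 with 1 GSK-J4 or ZnSO4 library left out, and the change between 6 and 24 h had 679 genes without the filter. Without the filter the lower members were 2 for the proteasome, 3 for ERK feedback, 2 for NF-kB and 5 for ribosome biogenesis. With 1 library left out, DMSO replicate 3 included, they were 3 to 6 for ERK feedback, 3 to 5 for NF-kB, 6 to 10 for ribosome biogenesis and 3 to 5 for G2/M, and the higher plasma cell factors were 4 to 8; the cause was not tested. No paired analysis was possible because the sample numbers run through the series and none is shared between groups. Libraries of 4403333 to 6662502 counts limit genes of a few CPM.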
